A study of Mus musculus with 12 samples.

Results

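Neurofilament and axonal growth genes were followed along the mouse cochlea. The group holds 10 genes, Nefl, Nefm, Nefh, Ina, Prph, Tubb3, Stmn2, Stmn3, Gap43 and Uchl1, chosen by name, and all 10 were found among the 19505 genes measured. They were read by 45 of the 165865 probes used. The 12 single-color exon arrays carried RNA from apex, middle turn and base of cochleae of C57BL/6 male mice aged 6 weeks, 4 arrays per level, with 25 ng of total RNA per sample and no treatment. The dissected tissue held the lateral wall with the stria vascularis and spiral ligament, and the organ of Corti. The study's methods add the spiral ganglion neurons, which the sample labels do not mention. All 4 arrays of a turn lay on 1 slide that carried no other turn, so that turn and slide cannot be told apart in any comparison here. The methods state 4 mice, and p-values measure only the spread between these samples.

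Neurofilaments are the intermediate filaments of neurons. A light, a medium and a heavy chain (Nefl, Nefm, Nefh) assemble with α-internexin (Ina) in central axons and with peripherin (Prph) in peripheral ones, and they set the caliber of large myelinated axons. Microtubules of neurons contain the class III β-tubulin Tubb3, the stathmins Stmn2 and Stmn3 regulate their assembly in growing neurites, Gap43 is a growth cone protein, and Uchl1 is a ubiquitin hydrolase abundant in neurons. In the cochlea, peripherin is known as a marker of the type II spiral ganglion neurons, which contact outer hair cells, while most ganglion neurons are of type I and contact inner hair cells.

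Intermediate filament genes share conserved stretches, and the probe sequences show how close they come on this array. Each probe was aligned without gaps to every probe of another gene over at least 30 bases, and the alignment with the most identical bases was kept. In that alignment, 10 of the 45 probes were identical to another gene's probe at 75% or more of the aligned bases. A shorter overlap of higher identity could go uncounted. For 6 of these 10 the other gene was also one of the 10 genes. Among members, Nefl and Ina were closest, with 52 of 60 bases identical. They are shown 5′ to 3′ because these genes moved together. Capitals mark bases identical to the partner, and positions are on mm9.
Nefl, chr14:68704096-68704155, plus strand: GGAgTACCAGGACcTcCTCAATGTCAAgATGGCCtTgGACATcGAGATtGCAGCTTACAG
Ina, chr19:47096388-47096447, plus strand: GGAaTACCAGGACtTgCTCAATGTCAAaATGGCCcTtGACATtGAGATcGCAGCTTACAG

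Peripherin is shown beside desmin (Des, the muscle intermediate filament), because its probes moved in opposite directions. The Prph probe at transcript position 345 matched a Des probe at 51 of 53 bases. The probe at position 1428 had its closest match in another Des probe, at 43 of 59 bases (72.9%). It stayed just under the 75% limit and is shown in lower case, without marks for those bases. Position 687 came nearly as close to a Des probe, at 71.7%.
Prph position 345, chr15:98885950-98886009, plus strand: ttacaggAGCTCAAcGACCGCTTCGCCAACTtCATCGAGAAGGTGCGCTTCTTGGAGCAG
Des, chr1:75357330-75357389, plus strand: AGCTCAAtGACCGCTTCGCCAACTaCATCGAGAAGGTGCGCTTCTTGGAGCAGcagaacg
Prph position 1428, chr15:98888267-98888326, plus strand: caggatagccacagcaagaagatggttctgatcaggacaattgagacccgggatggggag

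At the apex against the base, 7 of the 10 genes were higher at the apex, Prph was higher at the base as a mean of its probes, and Gap43 and Uchl1 did not pass the test (limma, Benjamini-Hochberg adjusted p under 0.05). Among all genes, 17.6% passed as higher at the apex and 21.6% as higher at the base. The median log2 difference of the 10 genes was 1.40, against -0.04 for all genes. In 5 of the 10, Nefl, Nefm, Nefh, Ina and Stmn2, every apex array was above every base array, which held for 16.9% of all genes. In Prph every base array was above every apex array, as in 21.4% of all genes. In these bulk samples, fewer neurons and less RNA per neuron cannot be told apart. At the middle turn against the base, 9 genes were higher at the middle turn and Gap43 was not called, where 11.7% of all genes passed as higher at the middle turn and 9.21% as higher at the base. The median was 1.38 there, against 0.04 for all genes, and the same 5 genes had no overlap, against 12.5% of all genes. Between apex and middle turn Prph alone of the 10 was called, and it was higher at the middle turn. Of all genes, 4.42% passed as higher at the apex and 7.59% as higher at the middle turn. The Prph arrays did not overlap there, as in 13.5% of all genes.

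**Figure D1:**
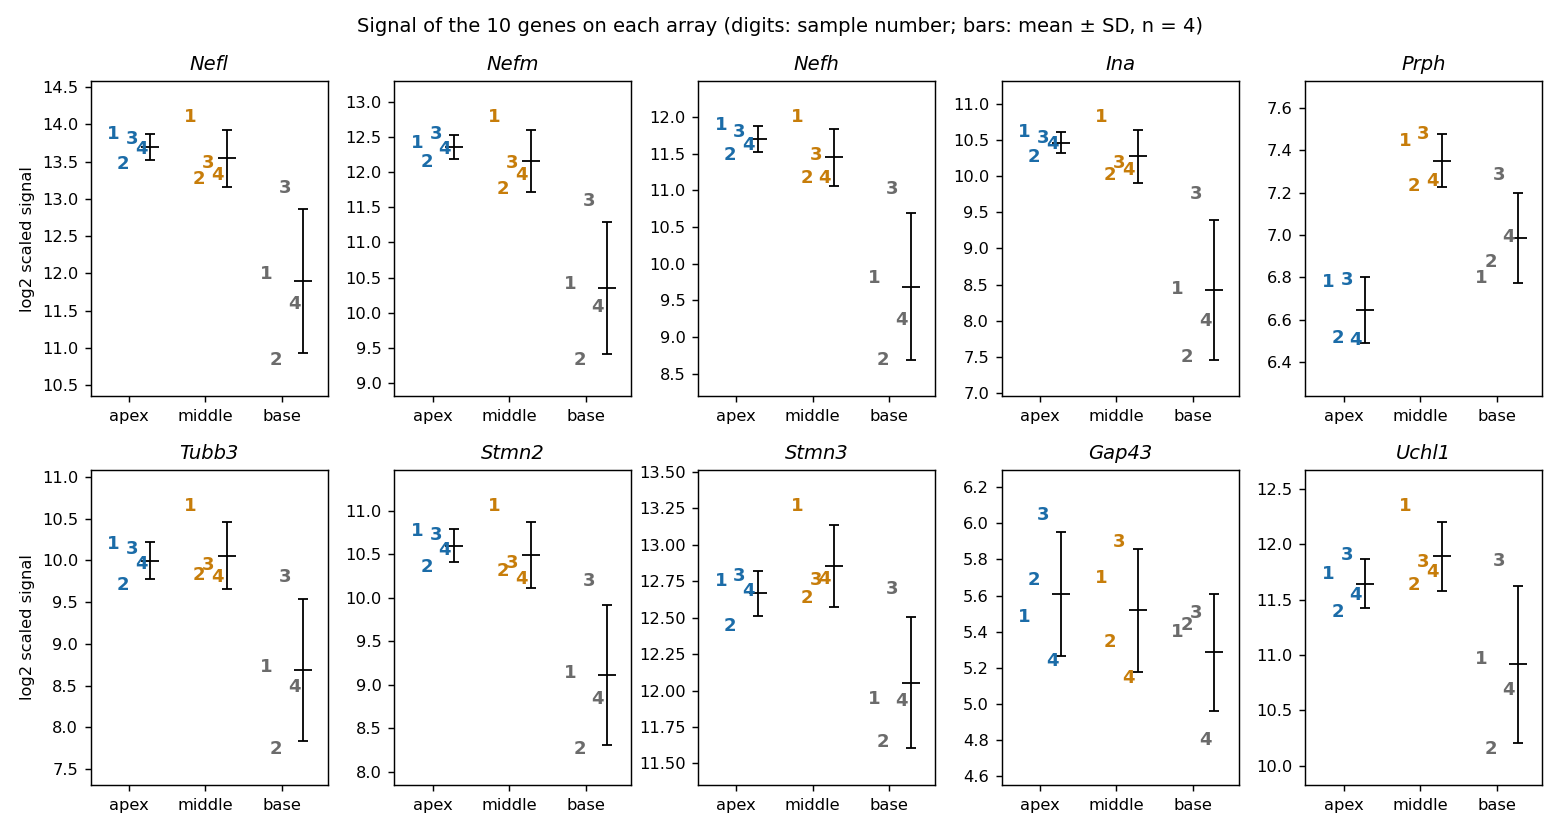
The log2 scaled signal of each of the 10 genes (vertical axis, own scale per gene) is plotted by turn. Each digit is 1 array with its sample number, and the bars give the mean ± SD of 4 arrays. In 8 genes base 2 was the lowest of the 12 arrays, and base 3 the highest of the base, while Prph was lowest at the apex and Gap43 overlapped in all turns.

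The light chain Nefl, without which neurofilaments do not form, had scaled signals of 14950, 11290, 14240 and 12970 on the apex arrays 1 to 4. At the middle turn its signals were 17470, 9898, 11480 and 10240, and at the base 4065, 1835, 9098 and 3097. The apex arrays lay close together, middle 1 stood above the other middle arrays, and the base spread over 4.96-fold, with base 3 just under the lowest middle array and no overlap with either turn. Nefl was 3.49-fold higher at the apex than at the base (log2 1.80 ± 0.388 SE, limma adjusted p = 0.0035, n = 4 per turn), and 1.65 log2 units higher at the middle turn than at the base (adjusted p = 0.013). Apex and middle turn overlapped and were not called different. Its 4 probes, between chr14:68703006-68705698 on the plus strand, differed by 1.68 to 1.87 log2 units between apex and base, and all 4 were called.

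The side-arm chains Nefm and Nefh followed the light chain. Nefm had signals of 5456, 4503, 5934 and 5125 at the apex, 7014, 3480, 4476 and 3964 at the middle turn, and 1363, 643.4, 3078 and 1084 at the base. The base arrays were all below those of the other turns, with base 3 nearest to them. The difference of apex and base was 4.00-fold (log2 2.00 ± 0.389 SE, adjusted p = 0.0019). Nefh, the heavy chain, ran from 2868 to 3782 at the apex, from 2295 to 4075 at the middle turn and from 413.6 to 2078 at the base, again with no overlap of the base with the others. It was 4.02-fold higher at the apex than at the base (adjusted p = 0.0023), and 1.76 log2 units higher at the middle turn (adjusted p = 0.012). Nefm lies on the minus strand at chr14:68738193-68742534, on the same chromosome as Nefl, and Nefh at chr11:4839396-4847540 on the minus strand.

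Ina, the α-internexin gene at chr19:47090214-47098840, showed the largest apex to base difference of the 10. Its signals were 1565, 1234, 1471 and 1397 at the apex, 1803, 1039, 1160 and 1086 at the middle turn, and 347.2, 180.9, 861.6 and 254.1 at the base. Each base array lay below each array of the other turns. The apex was 4.12-fold above the base (log2 2.04 ± 0.386 SE, adjusted p = 0.0016), and the middle turn 1.86 log2 units above it (adjusted p = 0.0077). The probe that resembles Nefl gave 2.15 and the other Ina probes 2.11 and 1.87, so the Ina difference was 3.97-fold without it (adjusted p = 0.0016). With the resembling probes left out of all genes, Nefl, Nefm and Nefh differed by 3.46-, 3.85- and 3.96-fold, with adjusted p of 0.0036, 0.0022 and 0.0022.

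Prph did not follow the other filament genes, and its 7 probes, within chr15:98885950-98889101 on the plus strand, fell into opposing sets. The probes are assigned to different transcript records of Prph, and positions count along those records. Probes of opposite direction shared a record, as at positions 345 and 687, and at 1294 and 1428. As a mean of all probes it had signals of 109.7, 91.54, 110.4 and 90.98 at the apex, 173.7, 150.1, 177.7 and 152.8 at the middle turn, and 111.4, 117.1, 155.6 and 127.2 at the base. The apex arrays were the lowest, just under base 1, and middle and base overlapped. By that mean, the apex was lower than the base by a log2 difference of -0.34 ± 0.113 SE (adjusted p = 0.033) and lower than the middle turn by -0.70 ± 0.113 SE (adjusted p = 0.0044), and the middle turn was 0.36 above the base (adjusted p = 0.042). The first of these turned to 0.07 with normexp background correction (adjusted p = 0.51), and the first and the last were each lost without some single arrays.

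Both Prph probes alike a probe of another gene were higher at the apex. The log2 difference was 1.42 ± 0.174 SE (adjusted p = 0.00019) at position 345. At position 1294 it was 1.37 ± 0.113 SE (adjusted p = 1.6e-05). The probe at 1294 was the brightest of Prph, with mean signals of 6370, 4310 and 2470 in apex, middle turn and base. It matched a probe of the keratin Krt6b at 51 of 60 bases, whose mean signals were 5400, 3360 and 2040. The probe at position 345 read 636, 614, 651 and 621 at the apex, 510, 343, 479 and 445 at the middle turn, and 205, 179, 324 and 259 at the base. These arrays fell into a step from base to middle turn to apex with no overlap. The Des probe that it resembles showed the same step in its mean signals, with 1540, 987 and 587 in apex, middle turn and base. Its log2 difference of apex and base was 1.39 (adjusted p = 1.6e-05). As a mean of its probes, Des was 1.86-fold higher at the apex than at the base (limma adjusted p = 0.00031). By that mean, middle turn and base differed by only 0.06 log2 units (adjusted p = 0.75), without the step. Vim, the vimentin gene of the same filament class, was 2.49-fold higher at the apex as a mean of its probes (adjusted p = 3.1e-06). Whether RNA of other genes bound to these Prph probes was not tested.

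Of the other 5 Prph probes, 4 gave the opposite order. At position 1428 the signals were 52.4, 45.2, 50.5 and 48 at the apex, 164, 145, 152 and 117 at the middle turn, and 118, 127, 144 and 135 at the base. Every apex array was below every array of the other turns, which overlapped. The log2 difference of apex and base was -1.42 ± 0.105 SE (adjusted p = 8e-06), and the probes at 687, 1069 and 1497 gave -1.34, -1.32 and -1.15, all called. Position 591 differed by 0.07 and was well above background on only 1 array of the 12. Averaged over these 5 probes, Prph ran from 26.3 to 34.8 at the apex, from 62.6 to 76.9 at the middle turn and from 53.5 to 74.4 at the base. The apex was thereby 2.04-fold below the base (adjusted p = 9.8e-05) and 2.30-fold below the middle turn (adjusted p = 0.00041), and middle turn and base were not called different (log2 0.17 ± 0.124 SE, adjusted p = 0.35). Leaving out the resembling probes was chosen after the values were seen, and it removed the brightest Prph probes. The 5 that remain are dim. At the apex those at 591 and 687 were well above background on no array and the one at 1069 on 1 of 4.

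**Figure D2:**
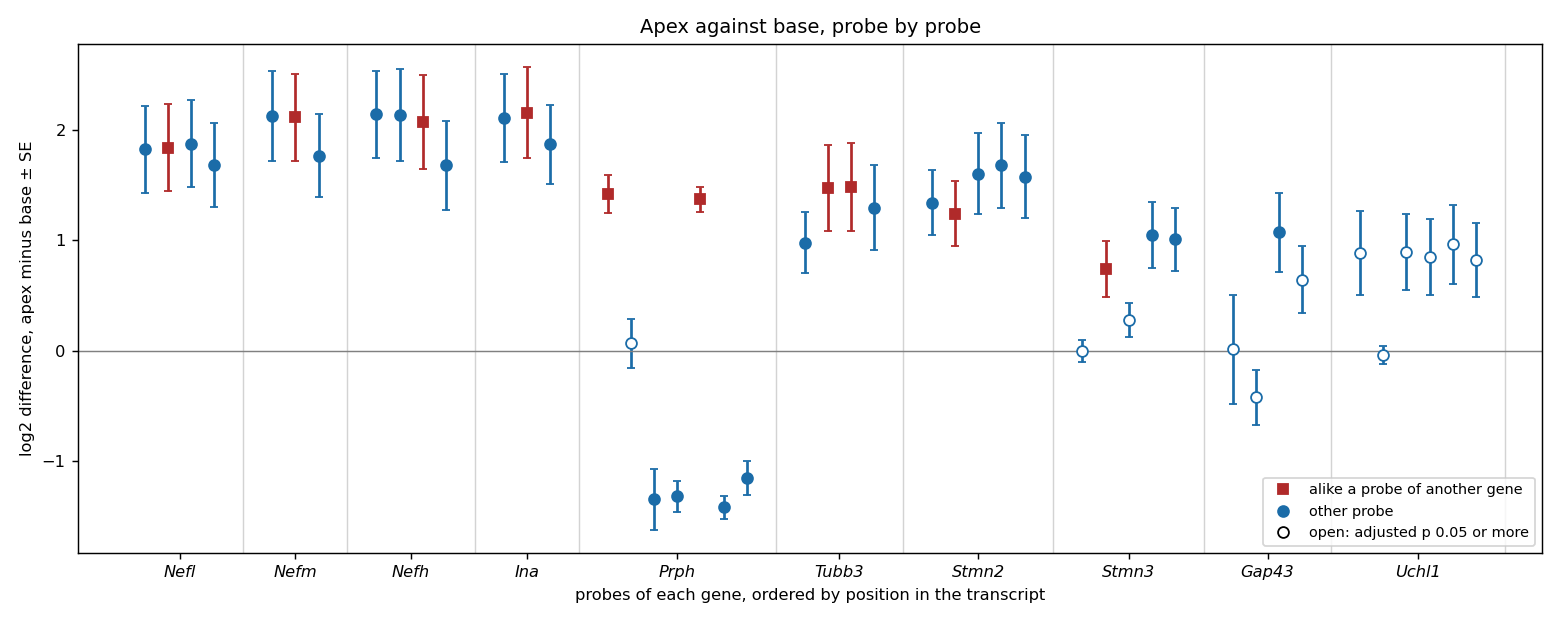
The log2 difference of apex and base ± SE (vertical axis) is plotted for each of the 45 probes, grouped by gene and ordered by position in the transcript. Squares mark the 10 probes alike a probe of another gene, and filled symbols an adjusted p under 0.05 over all probes. The 2 squares of Prph lie at 1.42 and 1.37, and 4 of its other probes lie between -1.42 and -1.15.

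Over all 45 probes, 29 were called higher at the apex than at the base and 4, all of Prph, lower. Of all probes, 18% were called higher at the apex and 16.4% were lower there. At the middle turn against the base 31 probes were called higher at the middle turn and 0 lower by limma, where the shares of all probes were 7.76% and 6.02%.

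Tubb3, at chr8:125935476-125945909, had signals of 1170, 837.4, 1125 and 990 at the apex, 1606, 908, 981.9 and 889.6 at the middle turn, and 423.1, 214.9, 890.9 and 358.3 at the base. Base 3 reached into the range of both other turns, and the other 3 base arrays were well below. The apex was 2.48-fold above the base (log2 1.31 ± 0.357 SE, adjusted p = 0.013) and the middle turn 1.36 log2 units above it (adjusted p = 0.020, or 0.063 without middle 1 and 0.055 without base 4). A pair of its 4 probes resembled probes of Tubb6, another β-tubulin, at 83.3% and 80.0% of bases. The Tubb6 probes were dim, with mean signals of 17.1 to 51.2, and were not called in any comparison. With the resembling Tubb3 probes left out, the difference was 2.20-fold (adjusted p = 0.016).

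The stathmins differed in size of change. Stmn2, a microtubule-destabilizing protein of growing and regenerating axons at chr3:8509571-8561604, ran from 1304 to 1743 at the apex, from 1189 to 2127 at the middle turn and from 307.9 to 1169 at the base, with no overlap of the base with the others. Its apex to base difference was 2.81-fold (adjusted p = 0.0047), and all 5 probes were called. Stmn3, at chr2:181041396-181048958 on the minus strand, read 6898, 5573, 7069 and 6576 at the apex, 9847, 6373, 6913 and 6950 at the middle turn, and 3934, 3200, 6629 and 3891 at the base. Base 3 fell among the apex arrays. The apex was 1.53-fold above the base (log2 0.62 ± 0.206 SE, adjusted p = 0.034) and the middle turn 0.80 log2 units above it (adjusted p = 0.019). The apex call rested on 3 of the 5 Stmn3 probes, with differences of 0.74 to 1.05, while those at positions 247 and 494 gave 0.00 and 0.28 and were not called. It was lost with scaling to the median or to spike-in probes, with the median of probes, and with any of 6 single arrays left out (adjusted p of 0.064 to 0.10). The middle turn call was lost with spike-in scaling, with only the 2 turns compared and without middle 1, base 2 or base 4 (adjusted p of 0.051 to 0.056).

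Uchl1, at chr5:67067501-67078467, had signals of 3398, 2688, 3831 and 2991 at the apex, 5205, 3175, 3658 and 3444 at the middle turn, and 1993, 1139, 3700 and 1649 at the base. Base 3 lay with the apex and middle arrays and the other 3 below them. The difference of apex and base was 1.66-fold (log2 0.73 ± 0.300 SE) and did not pass (adjusted p = 0.077), though that of middle turn and base did (log2 0.98, adjusted p = 0.040). That call was lost with any of 10 single arrays left out (adjusted p up to 0.11). Of its 6 probes, 5 gave 0.83 to 0.96 log2 units between apex and base, none called, and 1, at position 283, gave -0.04 ± 0.0809 SE. That probe is the richest in G and C of the 6, with 42 of 60 bases, and is shown beside the probe at position 520, with 31 of 60. Capitals mark G and C.
Uchl1 position 283, chr5:67068252-67068311, plus strand: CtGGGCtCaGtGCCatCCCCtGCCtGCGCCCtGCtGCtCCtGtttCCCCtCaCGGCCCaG
Uchl1 position 520, chr5:67073707-67073766, plus strand: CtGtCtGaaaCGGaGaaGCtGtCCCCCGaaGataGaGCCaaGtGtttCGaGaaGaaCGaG
The flat Stmn3 probe at position 247 had 43 such bases, and the Nefh probe at position 527, with 45, differed by 2.14 log2 units. A part of base composition in the flat probes was not tested.

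Gap43, at chr16:42248714-42340725 on the minus strand, was close to background. It had signals of 44.63, 51.39, 66.1 and 37.68 at the apex, 51.89, 40.53, 59.53 and 35.28 at the middle turn, and 42.18, 43.25, 45.39 and 27.89 at the base. The turns overlapped, and the log2 difference of apex and base was 0.33 ± 0.217 SE (adjusted p = 0.28). Of its 4 probes, only the one at position 118 was well above background on all 12 arrays, and it gave -0.42 ± 0.249 SE (adjusted p = 0.22). The probe at position 258 gave 1.07 (adjusted p = 0.038) but was well above background on no array, so that its difference is one of background-level signal.

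**Figure D3:**
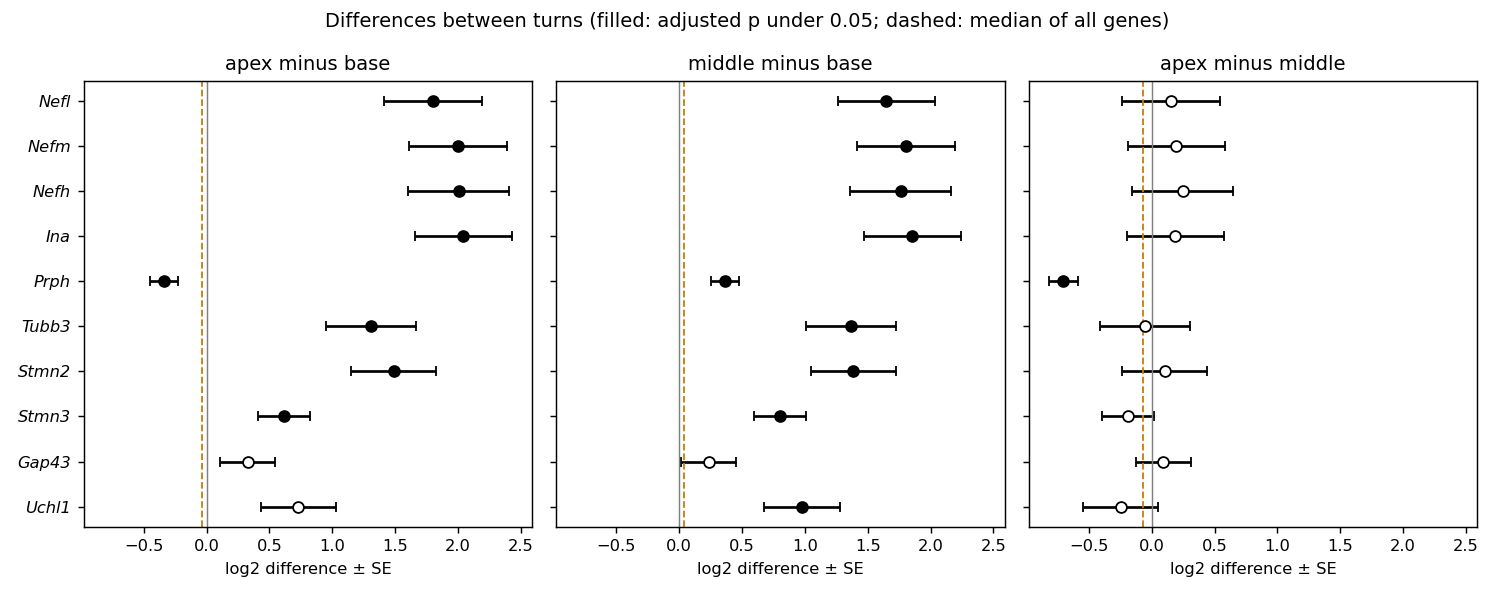
The log2 difference ± SE of each gene is plotted for apex minus base, middle minus base and apex minus middle, with the median of all genes dashed. Filled points passed an adjusted p under 0.05. Nefl, Nefm, Nefh and Ina lie between 1.80 and 2.04 in apex minus base, and all genes but Prph lie within 0.25 of 0 in apex minus middle.

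The order of the levels was the same for the neurofilament chains and Ina. The base was lowest and the middle turn was 87.7% to 91.4% of the way from base to apex in log2 terms, and it was not called different from the apex. Stmn3, Uchl1 and Tubb3 had their highest mean at the middle turn, though apex and middle did not differ beyond their spread. Prph over its 5 probes alone was lowest at the apex.

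How far the genes moved with Nefl was examined array by array, as the log2 value of a gene minus that of Nefl, a measure chosen after the values were seen. Over the 12 arrays this difference had an SD of 0.108 for Nefm, 0.109 for Nefh and 0.131 for Ina, while Nefm itself ranged over 3.45 log2 units. The SD was 0.171 for Stmn2, 0.225 for Tubb3, 0.486 for Uchl1 and 0.596 for Stmn3, and it was 0.90 for Gap43 and 1.03 for Prph. From base to apex, Nefm, Nefh and Ina gained slightly on Nefl, by 0.20, 0.20 and 0.24 log2 units. Tubb3 gained 0.50, Stmn2 0.32 and Uchl1 1.07 units less than Nefl, and relative to Nefl Stmn3 changed by -1.19, Gap43 by -1.48 and Prph by -2.14. In all 9 the arrays of apex and base did not overlap. The exact two-sided permutation p was 0.0286 each, the smallest that 4 against 4 arrays allow, and 0.0386 after adjustment over 27 such tests. This permutation took the arrays as independent. The methods state 4 mice whose cochleae were cut into turns, so apex and base can share mice, which the test ignores. Nefl itself had no overlap of apex and base, so a gene that was not called, such as Gap43, can separate by this measure too. These p-values therefore do not show that a gene itself differed between the turns. How many of all genes would separate in this way was not computed.

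The base arrays spread more than those of the other turns in all of these genes but Gap43. Base 3 was the highest base array in all 10 genes, and base 2 the lowest in all but Gap43 and Prph. Without base 2 the median apex to base difference of the 10 genes was 1.10, with 6 called higher at the apex. Without base 3 it was 1.76, with 8 called, among them Uchl1 (log2 1.04, adjusted p = 0.0033), and the Prph mean was no longer called (adjusted p = 0.079). Without both, the median was 1.499 and 8 were called higher at the apex. Of all genes, 14.6% were called so without base 2, 17% without base 3 and 13.4% without both.

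Marker lists of the cell types in the tissue were summed on each array as linear signals, so that the brightest genes weigh most in a sum. In the neuron list these were Pvalb and Snap25, with mean log2 signals of 13.24 and 12.46 at the apex. Of 11 neuron markers 10 were higher at the apex than at the base, against 17.6% of all genes, and Rbfox3 was not called. Their summed signal was 19750 to 25610 at the apex, 19520 to 34100 at the middle turn with middle 1 highest, and 9317, 5169, 19500 and 7800 on base arrays 1 to 4. Base 3 was again highest and base 2 lowest of the base. Syt1, a synaptic vesicle calcium sensor, was 5.48-fold higher at the apex, Scg2, a secretory granule protein, 4.44-fold, Eno2, the neuronal enolase, 2.79-fold and Slc17a7, the glutamate transporter of type I ganglion neurons, 2.76-fold, with adjusted p up to 0.0036.

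Schwann and satellite cell markers, which mark the glia around the ganglion neurons, were higher at the apex for 6 of 7. Their summed signals were 14460 to 16270 at the apex, 15560 to 18480 at the middle turn and 7845 to 13940 at the base. Base arrays 1 to 4 read 10520, 7845, 13940 and 9202, in the same order as for the neuron markers. Hair cell markers were higher at the apex for 7 of 8, with sums of 15940 to 20320, 12330 to 14250 and 4944 to 7401. For both of these lists the share of all genes higher at the apex was 17.6%. The leading hair cell genes were Slc26a5, the motor protein of outer hair cells, at 7.65-fold, and Ocm, an outer hair cell calcium buffer, at 3.78-fold. The acetylcholine receptor subunits Chrna10 and Chrna9 followed at 3.60-fold and 3.44-fold. Ocm was the brightest hair cell marker, with a mean log2 signal of 13.76 at the apex, and weighed most in the sum. Stria and ligament markers were higher at the base for 6 of 8, where 21.6% of all genes were. Among them Otos, a secreted fibrocyte protein, was 2.43-fold higher there. The sums of this list were 276200 to 301400 at the apex, 385300 to 426800 at the middle turn and 548200 to 622200 at the base. Otos and Coch, with mean log2 signals of 18.485 and 17.08 at the base, were its brightest genes and weighed most. The mean log2 signal over its 8 genes was 12.62, 12.98 and 13.20 in apex, middle turn and base. Of the bone markers only Dmp1, an osteocyte protein, was called, 2.13-fold higher at the base. Macrophage and blood markers were called higher at the base for 3 of 6 and skeletal muscle markers for 1 of 5, where 21.6% of all genes were. The part of cell type shares in the differences of the 10 genes was not tested.

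**Figure D4:**
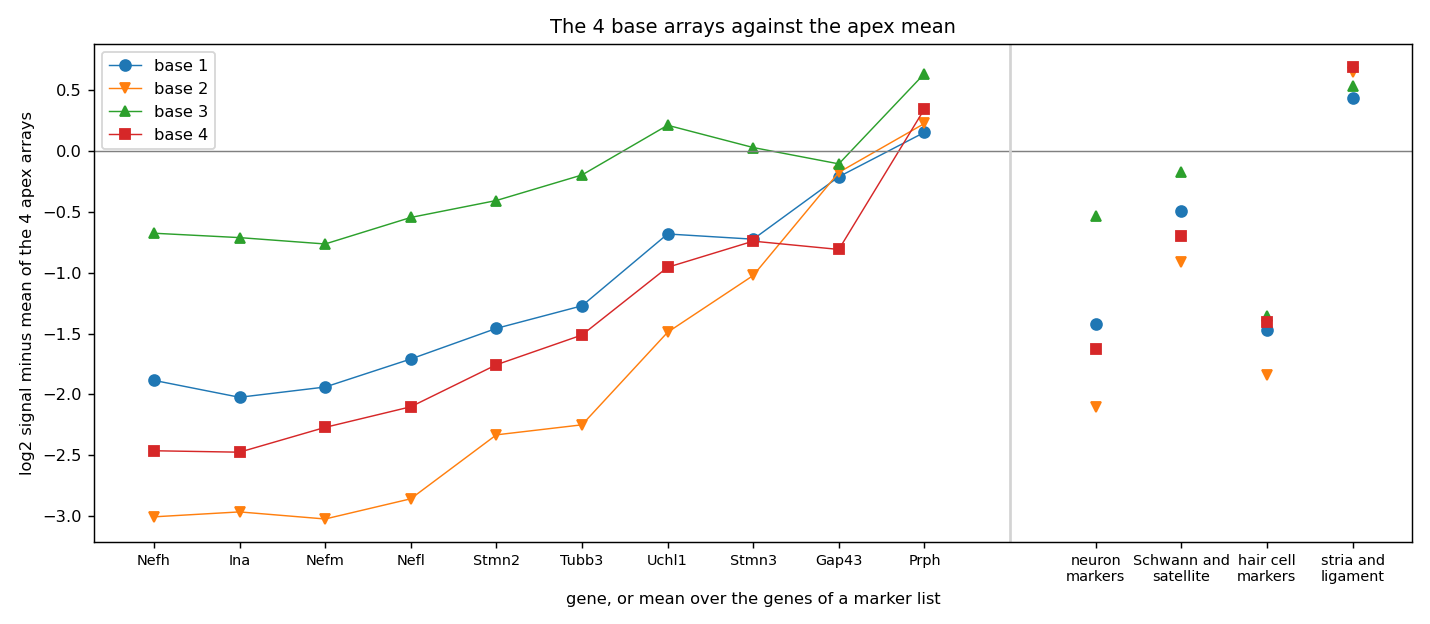
The log2 signal of each base array minus the mean of the 4 apex arrays is plotted for the 10 genes and, at the right, for the mean over 4 marker lists. The base arrays keep 1 order in 8 genes at the left, with base 3 highest and base 2 lowest. The neuron markers and the Schwann and satellite markers share that order. Hair cell markers of base 1, 3 and 4 lie close together, above base 2.

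Set against the mean of the 11 neuron markers on the same array, the log2 level of Tubb3 was 0.16 at the apex, 0.42 at the middle turn and 0.28 at the base, and that of Stmn2 0.76, 0.87 and 0.70. The marker mean itself was 9.83 at the apex and 9.63 at the middle turn. Only 2 markers, Syt1 and Scg2, were called between these turns, higher at the apex by 1.065 and 1.14 log2 units. Tubb3 alone differed by -0.06 there. The base range, 0.01 to 0.50 for Tubb3 and 0.53 to 0.89 for Stmn2, covered the apex mean. Ina stayed 0.63 above the markers at the apex and 0.01 at the base, with ranges of 0.59 to 0.66 and -0.24 to 0.45 that did not overlap. Nefl was 3.79 to 3.90 above them at the apex and 3.11 to 3.85 at the base, which overlapped. The ranges did not overlap for Nefm, at 2.45 to 2.63 and 1.60 to 2.29, or for Nefh, at 1.81 to 1.92 and 0.96 to 1.72. Uchl1 and Stmn3 went the other way, with Uchl1 1.81 above the markers at the apex and 2.50 at the base, and Stmn3 2.83 and 3.64. These differences were not tested.

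Of 37 other genes of the neuronal cytoskeleton and axonal transport, 31 were called higher at apex than base and 0 lower by limma. The shares of all genes were 17.6% and 21.6%. The median log2 difference of the list was 0.61, against -0.04 over all genes. The largest were Tubb2b, a β-tubulin of neurons, at 4.81-fold (adjusted p = 4.1e-08), Kif5c and Kif5a, the neuronal kinesin heavy chains, at 3.43- and 2.64-fold (adjusted p = 0.0018 and 0.0030), and Map1a, a microtubule-associated protein of mature neurons, at 3.36-fold (adjusted p = 0.0041). Not called were Mapt, Dclk1, Tubb5, Tuba1a, Tuba4a and Kif5b. Kif5b, the kinesin heavy chain of most cell types, differed by -0.12 and Tubb5, a widely expressed β-tubulin, by 0.09, and they are given here as relatives picked after the values were seen. At the middle turn against the base 28 of the 37 were higher, where 11.7% of all genes were. At the apex against the middle turn 3 were higher, where 4.42% of all genes were.

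Of the axon growth and regeneration genes 13 of 22 were higher at the apex and 2 lower, against 17.6% and 21.6% of all genes, with a median of 0.53. Lingo1, a neuronal receptor subunit that limits axon growth, was 4.52-fold higher at the apex (adjusted p = 0.0028). Chl1 and L1cam, both axonal adhesion molecules, were 3.43-fold (adjusted p = 4.6e-06) and 2.10-fold (adjusted p = 0.00059) higher there. Lingo1 was dim, with a mean log2 signal of 5.63 at the apex and 3.45 at the base, and Chl1 had 6.32 and 4.54. For Gap43, close to background, these means were 5.61 and 5.29. The 2 lower genes, the transcription factors Klf4 and Klf9, are known to restrain axon growth, and differed by -0.49 (adjusted p = 0.00060) and -0.72 (adjusted p = 3.6e-05). The other 7 did not pass. Between middle turn and base 9 of 22 were higher at the middle turn and 2 lower, against 11.7% and 9.21% of all genes.

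Of the intermediate filament genes of other cells, 5 of 15 were called higher at the apex and 4 lower, against 17.6% and 21.6% of all genes. Krt19, an epithelial keratin, was 4.02-fold higher at the apex (adjusted p = 2e-07) beside Vim, and Nes, Krt7, Krt18 and Lmna were higher at the base. The relatives of Uchl1, the ubiquitin hydrolases Uchl3, Uchl4, Uchl5 and Bap1, were called in 0 of 4 between apex and base by limma, with adjusted p of 0.099 to 0.50. At the middle turn against the base 1 of the 4, Bap1, was called higher at the middle turn (log2 0.20, adjusted p = 0.030), where 11.7% of all genes were.

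**Figure D5:**
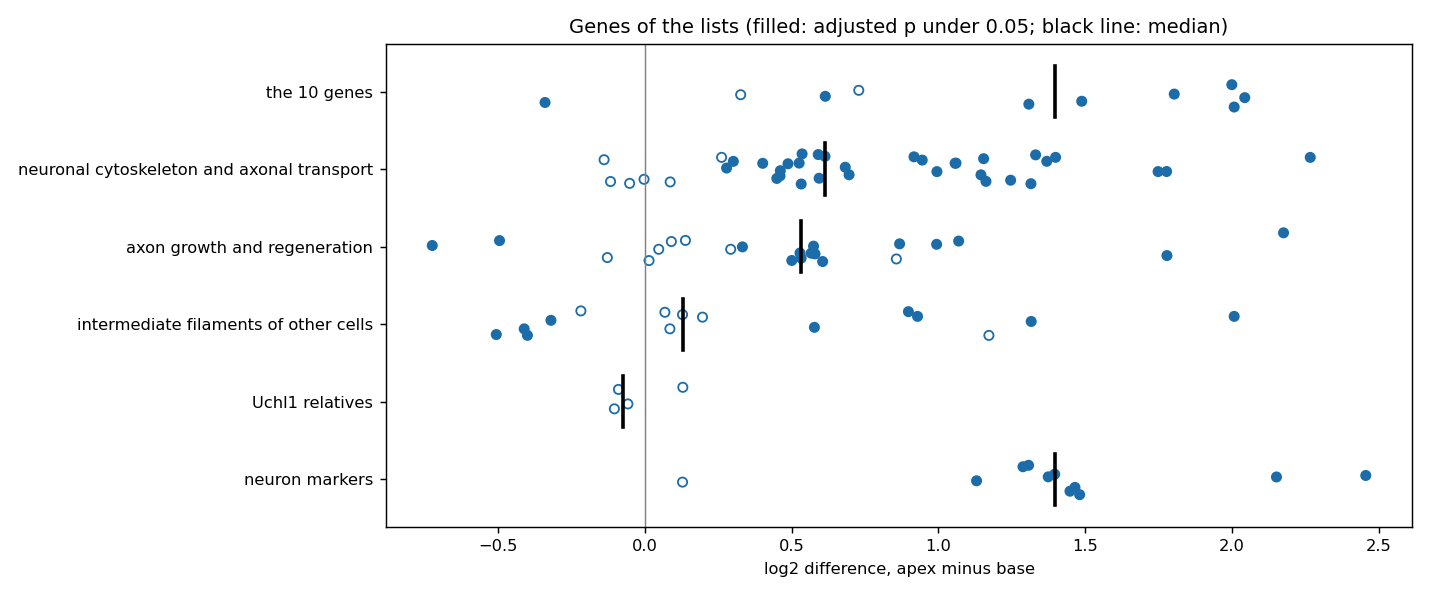
The log2 difference of apex and base is plotted for each gene of 4 related lists, the 11 neuron markers and the 10 genes, with filled points past an adjusted p of 0.05 and a black line at the median. The median of the 10 genes is 1.40 and that of the neuron markers 1.40, against 0.61 and 0.53 for the lists of cytoskeleton and axon growth genes.

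Genes whose level over the 12 arrays was most like the mean standardized level of the 10 genes were Mdga1, a neuronal surface protein, with a Pearson's r of 0.996, Cacnb4, a calcium channel subunit, with 0.993, and Susd4, Dync1i1 and Ggt7, with 0.992 each, among 8782 genes with 3 or more probes all well above background. These values describe the arrays, whose turn and slide are shared. Their apex to base differences were 1.63- to 2.23-fold, smaller than those of the neurofilament chains.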

How the data were processed

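Scanned images of the arrays were converted by the authors with Agilent Feature Extraction 10.7.3.1. The deposited files hold the intensity of each spot after background subtraction, with flags for spots well above background, on probe positions of mm9. Control spots and spots flagged on any array were left out, which left 165865 probes of 19505 genes. Each array was scaled so that its 75th percentile (534.6 to 722.1 before scaling) met the median of the 12, 641.3, as in the study's methods. Repeated spots, then the log2 values of all probes of a gene, were averaged without a filter. No spot was saturated, and 77.37% to 81.39% of spots per array exceeded background clearly. The number of arrays limits the precision.

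Turns came from the labels. Moderated contrasts over 12 arrays were fitted with limma 3.58.1 in R 4.3.3 and adjusted by Benjamini-Hochberg over all genes, or over all probes for single probes. The scripts were tested on simulated data. Alternatives were other scalings, background correction with an offset of 50, 16 added to the signal, filters, probe summaries, an unmoderated fit, the sample number as a block, and each array left out. The series' own value table held the same intensities. The 10 genes and all lists were chosen with earlier results of these data known. List genes were named when the moderated F test passed and apex and base differed 2-fold or more, up to 4 in each direction. Probes were placed by the positions in the files, and their place in coding or untranslated exons was not analysed here.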

Additional observations from a re-analysis of the deposited data

Results flagged for a closer look

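In the middle turn, the Tubb3 signal of array 1, 1606, stood apart from the other 3, with a gap of 0.833 of the whole range of log2 values. In the base, the Gap43 signal of array 4, 27.89, was low by the same measure, with a gap of 0.85 of the log2 range. These were 2 of 30 groups of 4 arrays examined, and chance gives about 1 in 20. Middle 1 was also the highest middle array in the neuron markers.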

How the results depend on the processing

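Calls of Nefl, Nefm, Nefh, Ina and Stmn2 against the base, from either turn, kept their direction and passed the test under all 26 alternatives, with adjusted p up to 0.048. Between 1 and 0 genes were called higher at the base than at the apex, namely Prph, and that count was 0 with normexp background correction (Prph 0.067), with only probes well above background, with 16 added, with only the 2 turns compared, without both base 2 and base 3, and without apex 2, apex 4, base 3 or base 4 (range of 0 to 1 when leaving out single arrays). Genes called higher at the middle turn than at the base fell from 9 to 5 with only the 2 turns compared, without middle 1 and without base 4 (range of 5 to 9). The median apex to base difference ran from 1.10 to 1.76 over the left-out arrays.

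Scaling to 8 spike-in probes lowered the median of all genes to -0.523 in apex against base, -0.233 in middle against base and -0.283 in apex against middle. The 10 genes then had medians of 0.911, 1.104 and -0.119, with 6 called higher than the base in each turn. Of all genes, 3.97% at the apex and 3.87% at the middle turn were called higher than the base. The shares called higher at the base were 73.5% and 33.7%. Gap43 turned to -0.16 and -0.037 against the base, and in apex against middle Nefl turned to -0.061, Nefm to -0.019, Ina to -0.028, Stmn2 to -0.114 and Gap43 to -0.123. This scaling moves all genes alike, here by 0.216, so that a value relative to the median of all genes cannot change. By that measure these 5 were above 0, at 0.16 to 0.264. In apex against middle Gap43 also turned with normexp (-0.111), only probes well above background (-0.008), 16 added (-0.004), without apex 3 (-0.052) and without middle 4 (-0.033), and Tubb3 turned without apex 2 (0.04) and without middle 1 (0.143). Over the left-out arrays Gap43 ran from -0.052 to 0.218 there and Tubb3 from -0.141 to 0.143. The median of apex against middle ran from -0.012, without middle 4, to 0.220 over the left-out arrays. The cause of the moves other than by spike-in scaling was not tested.

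The Stmn3 call of apex against base was lost with scaling to the median (adjusted p = 0.065), spike-in scaling (0.56), the median of probes (0.23), the unmoderated fit (0.058) and only the 2 turns compared (0.05), and it passed in 15 of 26 alternatives. The Stmn3 call of middle against base passed in 21 of 26. Whether a sample number marks the same mouse at each turn is not given in the sources used here. Deviations from the turn means correlated at a mean of 0.0949 over 12 same-numbered pairs (-0.0367 to 0.227, 6 over 0.1) and at -0.0313 over 36 others (2 over 0.1), so that the pairing stayed unsettled and was not used. With the number as a replicate block, 9 genes were called higher at the apex than at the base, against 18.8% of all genes. Among them were Uchl1 (adjusted p = 0.034) and Gap43 (adjusted p = 0.033). At the middle turn 9 were called higher than at the base, against 13.6% of all genes. Dim probes limit Prph and Gap43.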
